A study of Mus musculus with 10 samples.

Results

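The genes described here encode the proteins of the mitochondrial ribosome, the mitoribosome, and were taken by symbol: every row of the expression table whose gene symbol begins with Mrpl or Mrps followed by a digit. The rule found 78 genes of 19782, of which 49 carry the large subunit prefix (Mrpl) and 29 the small subunit prefix (Mrps). All 78 passed the filter on low counts and were among the 12505 genes tested. The RNA came from hippocampal microglia of the mouse, the macrophages that reside in brain tissue, isolated by their low CD45 and their CD11b (CD45low CD11b+). There were 4 libraries of wild type on normal diet and 3 of 5xFAD on normal diet (control). Another 3 libraries came from 5xFAD mice that received PLX3397 in chow at 290 mg/kg for 1 month from 4 months of age, followed by 1 month of normal diet (repopulated). Ages are given in the labels for the repopulated mice alone. PLX3397 blocks the CSF1 receptor, without whose signal microglia die, and microglia return once it is withdrawn. The 5xFAD line is a transgenic model of Alzheimer disease that forms amyloid plaques, with transgenes driven by a neuronal promoter. Repopulation was compared with untreated 5xFAD and untreated wild type, as wild type with repopulation was not analysed here. Whether a group's libraries are from separate mice is not in the labels, so the spread behind each p-value is one between samples and may be technical.

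Mitochondria keep a small genome whose protein products are all core subunits of the oxidative phosphorylation complexes, and the mitoribosome translates them. Its ribosomal RNAs are made in the organelle, whereas its proteins are encoded in the nucleus, made in the cytosol and imported. Some of these proteins have a counterpart in the bacterial ribosome and others were added in the mitochondrial lineage. In microglia the respiratory chain and glycolysis both supply ATP, and the balance between them is known to change with activation. By the classes used here, 46 of the 78 genes have a bacterial counterpart and 32 are specific to mitochondria. Symbols do not always match the position of the protein: the products of Mrps18a and Mrps30 sit in the large subunit, and the product of Mrps36 is now assigned to the 2-oxoglutarate dehydrogenase complex. Proteins encoded by mitochondrial DNA were not analysed here.

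RefSeq promoters on GRCm38.p6, 300 bases each from 250 before to 50 after the start, were matched for 69 of the 78 genes (75 promoters). Mrpl4, Mrpl13, Mrpl15, Mrpl19, Mrpl38, Mrpl54, Mrps28, Mrps34 and Mrps35 had no entry. On both strands 3 motifs of factors known to act on nuclear genes of mitochondrial proteins were searched: the palindromic consensus of NRF1, CCGGAAGT for GABP and other ETS factors, and AAGATGGCG for YY1. None of the 3 contains another. The NRF1 consensus was in 4.0% of the mitoribosomal promoters (3 of 75), against 0.971% of all 32851 promoters of that length. The ETS letters were in 16.0% (12 of 75), against 3.887% of all. The YY1 letters were in 10.667% (8 of 75), against 1.403% of all. At least 1 of the 3 was in 22 promoters (29.333%), against 6.045% of all. These were 15 of 48 of the large and 7 of 27 of the small subunit. The set of all promoters covers 27025 genes, with genes not tested here among them, and promoters of the tested genes alone were not counted. A match is a description of these letters and not a measured binding site. The 3 promoters shown belong to Mrpl33 and Mrpl27, the genes whose rise in control microglia held in each of 23 processing alternatives, and to Mrpl10, the gene that fell. Each is given 5′ to 3′ on the strand of the gene, from 250 bases before to 20 after the start, with a motif in capitals, at chr5:31613701-31613970 (plus strand), chr11:94653541-94653810 (plus strand) and chr11:97041332-97041601 (plus strand).
Mrpl33: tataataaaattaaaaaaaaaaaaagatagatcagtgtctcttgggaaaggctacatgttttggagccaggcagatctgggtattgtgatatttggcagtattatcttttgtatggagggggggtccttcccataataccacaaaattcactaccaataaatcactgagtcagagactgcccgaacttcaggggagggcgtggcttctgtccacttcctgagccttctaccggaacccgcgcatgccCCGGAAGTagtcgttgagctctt
Mrpl27: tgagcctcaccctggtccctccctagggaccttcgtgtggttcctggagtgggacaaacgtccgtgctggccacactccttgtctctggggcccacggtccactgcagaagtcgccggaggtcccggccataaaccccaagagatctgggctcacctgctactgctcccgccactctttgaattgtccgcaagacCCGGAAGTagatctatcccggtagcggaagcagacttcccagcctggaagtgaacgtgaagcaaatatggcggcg
Mrpl10: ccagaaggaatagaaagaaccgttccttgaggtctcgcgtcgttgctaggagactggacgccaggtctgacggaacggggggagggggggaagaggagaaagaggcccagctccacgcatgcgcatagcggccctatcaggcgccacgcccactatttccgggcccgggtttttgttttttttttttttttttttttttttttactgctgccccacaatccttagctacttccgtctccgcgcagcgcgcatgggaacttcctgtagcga
The ETS letters began at -3 in the Mrpl33 promoter and at -55 in that of Mrpl27, counted from the start at +1. The Mrpl10 promoter held none of the 3 motifs, and neither did those of Mrps36 and Mrpl11, which rose in control microglia. Of the genes called in control against wild type, 3 of 7 promoters had the ETS letters (Mrpl33, Mrpl27 and Mrps18c). They were in 9 of 68 promoters of genes not called, and this difference was not tested.

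The libraries held 18501136 to 23286814 estimated counts, and the 78 genes together took 0.268% to 0.324% of them. Summed levels of 8 microglial markers, all 8 of them tested, were 36040 to 49400 CPM (counts scaled to the library total and to TMM factors) in every library. The library wild-type 3 stood apart from the other wild-type libraries. Its summed markers were 58.7 CPM for neurons, 548 CPM for astrocytes, 129 CPM for oligodendrocytes and 281 CPM for red blood cells, whereas the highest values in the other 3 wild-type libraries were 11.7, 314, 88.5 and 20.7 CPM. Neutrophil markers summed to 287 CPM in control 2, against 15.5 and 21.1 CPM in control 1 and control 3, while wild-type libraries had 30.3 to 230 CPM of them and repopulated libraries 63.5 to 148 CPM. Y-linked transcripts were near absent (5.12 to 16.0 CPM) in wild-type 2, control 1 and control 3 and stood at 342 to 484 CPM elsewhere. These 3 libraries were also the lowest in neutrophil markers. In control against wild type Mrpl11, Mrps18c and Mrpl42 lost their call by edgeR without control 2. With a term for Y-linked transcripts Mrpl11 and Mrps18c kept it and Mrpl42 did not (edgeR adjusted p = 0.0767). The part of neutrophil markers, low in the same libraries, was not tested. The TMM library factors were 1.02 to 1.12 in wild type, 0.913 to 0.917 in control and 0.972 to 1.04 in repopulated libraries. Because they separate control from wild type, directions of the whole family depended on them, as given beside each result. In RNA from sorted cells in bulk, a change in the mix of cells and a change of RNA per cell cannot be told apart.

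The levels of the mitoribosomal genes, compared as TPM (a unit that accounts for gene length), spanned a wide range. Mrpl42, a large subunit protein specific to mitochondria, had the highest mean over the 10 libraries, 514 TPM. Mrpl33, a small protein with a bacterial counterpart, followed at 502 TPM. Mrps18c, the mammalian protein closest to bacterial S18, had 394 TPM, Mrps21 had 286 TPM and Mrpl23 had 244 TPM. The lowest means were those of Mrpl19 at 9.63 TPM, Mrps5 at 12.02 TPM and Mrps25 at 14.3 TPM. The spread is one of transcript levels, and protein levels were not analysed here. The 3 genes of highest level all belonged to the group that rose in control microglia. The others of that group ranked 7 (Mrpl27), 25 (Mrps36), 33 (Mrpl54) and 74 (Mrpl11) of the 78 by level.

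Summed over the 78 genes, TPM levels overlapped between the 3 groups. The sum was 6394 ± 544 TPM (SD, n = 4) in wild type, with a range of 5923 to 6893. It was 6528 ± 568 TPM (SD, n = 3) in control, with a range of 6058 to 7159, and 6047 ± 92.3 TPM (SD, n = 3) in repopulated microglia, with a range of 5941 to 6107. For the large subunit alone every control library, at 3909 to 4602 TPM, lay above every repopulated one, at 3768 to 3842 TPM. In TMM-scaled CPM the sum over the 78 genes was 3103 to 3395 in control and 2697 to 2990 in repopulated microglia, which did not overlap, and 2387 to 3184 in wild type. The ratio of control to wild type means was 1.02 in TPM and 1.16 in TMM-scaled CPM. Wild-type 1 and wild-type 4 were the low libraries of their group, with a mean log2 CPM over the 78 genes of 4.72 and 4.84. Wild-type 2 and 3 were at 5.06 and 5.05, as high as the 3 control libraries (5.04 to 5.07) and above the repopulated ones (4.90 to 5.03).

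In control against wild-type microglia a few mitoribosomal genes rose and most did not pass the test. With edgeR's quasi-likelihood test at an adjusted p under 0.05, 7 of the 78 genes rose and 1 fell, while 70 were not called. This is 10.3% of the family, against 18.1% of all genes tested. By direction, 10.1% of all genes rose and 8.04% fell. Those that rose were Mrpl33, Mrps36, Mrpl27, Mrpl54, Mrpl11, Mrps18c and Mrpl42, and Mrpl10 fell. Their folds were modest, from 1.56 to 2.10. At an unadjusted p under 0.05 there were 19 genes. The groups did not overlap in 12 genes that were higher and 2 that were lower in control, against 14.1% and 12.6% of all genes.

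**Figure D1:**
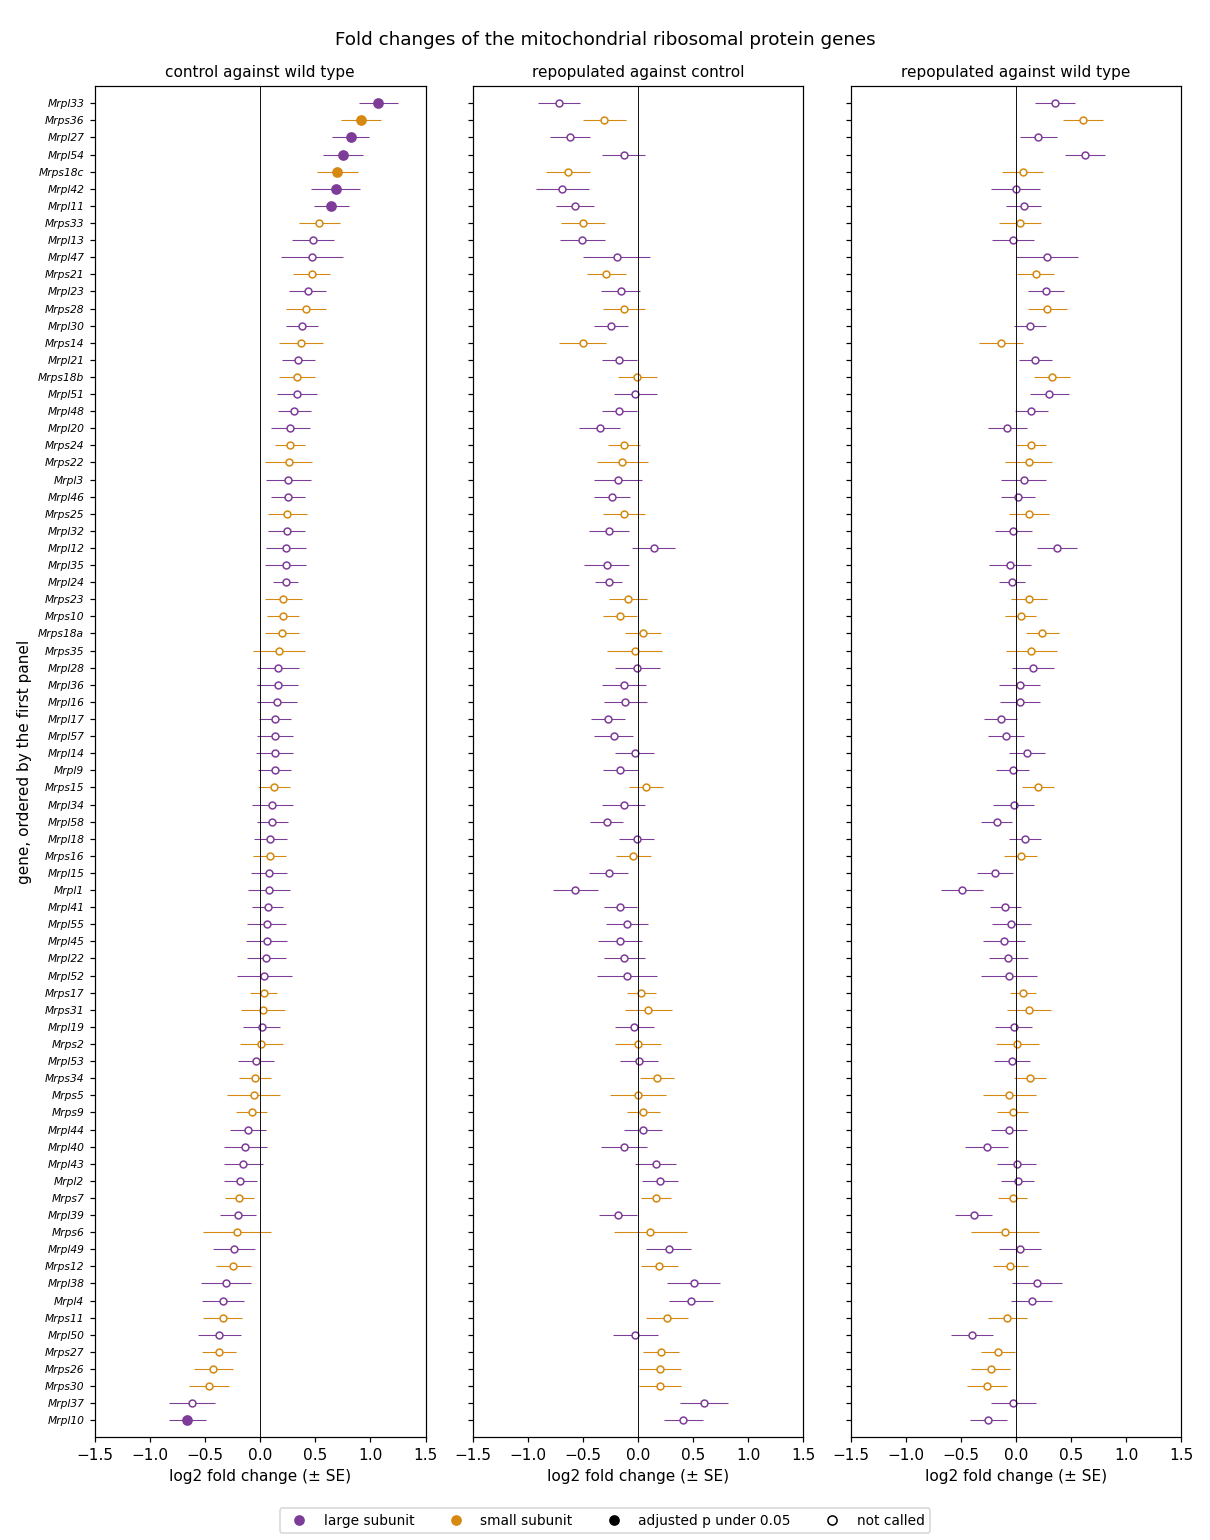
Log2 fold change with its standard error (x axis) of the 78 mitoribosomal genes (y axis, ordered by control against wild type) in each comparison, purple for the large and orange for the small subunit, filled where the edgeR adjusted p is under 0.05. Filled points appear in the first panel alone, 7 to the right of 0 and 1 to the left, and most of the genes at the top of that panel lie left of 0 in the second.

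The direction of the family as a whole depended on scaling. With TMM factors the median log2 fold change of the 78 genes was 0.13 and that of all genes -0.06, with 56 members above 0 and 22 below. With library totals alone, an alternative added after the factors were seen, the median of the family was -0.08 and that of all genes -0.27, and 5 members rose and 8 fell, while of all genes 814 rose and 2265 fell (24.6%). Relative to the median of all genes the family was 0.19 higher under both scalings, which shift all genes by about the same amount. Leaving out single libraries gave 0.10 (without wild-type 1) to 0.23 (without wild-type 2). With a term for Y-linked transcripts the difference was 0.16. With a correction for GC content and transcript length, 4 members rose and 5 fell, while of all genes 1102 rose and 1247 fell (18.8%), and the median was -0.04, against -0.10 for all genes.

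Mrpl33 gave the strongest rise. The gene (Entrez 66845, chr5:31613951-31622644) encodes a large subunit protein with a bacterial counterpart. Wild-type libraries 1 to 4 had 41.4, 59.5, 67.6 and 40.4 CPM, the control libraries 113, 118 and 97.8 CPM, and the repopulated libraries 61.9, 62.4 and 75.8 CPM. All 3 control libraries lay above every wild-type and every repopulated library. The gene was 2.10-fold higher in control than in wild type (log2 fold change 1.07, SE 0.18, adjusted p = 0.000776).

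Mrpl27 (Entrez 94064, chr11:94653770-94661932) encodes the counterpart of bacterial L27, which reaches towards the site where peptide bonds are made. Its levels were 51.6, 52.3, 72.9 and 45.5 CPM in wild type, 95.2, 115 and 84.2 CPM in control, and 61.6, 59.3 and 70.8 CPM in repopulated microglia. Again the control libraries were above all others. The log2 fold change of control against wild type was 0.82 (SE 0.17, adjusted p = 0.00341). Mrpl33 and Mrpl27 were called in each of 23 processing alternatives, with adjusted p from 7.52e-07 to 0.0191 for Mrpl33 and from 9.05e-05 to 0.0274 for Mrpl27.

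Mrpl11 and Mrpl10 encode proteins at the base of the ribosomal stalk, where translation factors dock, and they moved in opposite directions. Mrpl11 (chr19:4962152-4966995) had 24.02, 27.5, 29.7 and 22.4 CPM in wild type, 40.8, 46.96 and 33.8 CPM in control, and 25.5, 26.2 and 29.8 CPM in repopulated microglia. Control was above both other groups, with a log2 fold change against wild type of 0.65 (SE 0.16, adjusted p = 0.0117). Mrpl10 (chr11:97041582-97049213) had 30.1, 24.7, 33.8 and 26.3 CPM in wild type, 19.7, 19.4 and 15.4 CPM in control, and 21.8, 26.4 and 24.2 CPM in repopulated microglia. Here control lay below both other groups and was 1.58-fold lower than wild type (log2 fold change -0.66, SE 0.17, adjusted p = 0.0143). The call of Mrpl11 was lost without control 2 (adjusted p = 0.0596) and with library totals alone (0.0505). That of Mrpl10 was lost without control 3 (0.0691) and in a model with a term for Y-linked transcripts (log2 fold change -0.57, adjusted p = 0.0614). Leaving out the 3 libraries low in Y-linked transcripts leaves 1 control library, assumed to vary like the other groups, and Mrpl10 then had a log2 fold change of -0.62 (adjusted p = 0.167). Mrpl12, the stalk protein that the base carries, had a log2 fold change of 0.23 (adjusted p = 0.404).

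Mrpl54 and Mrpl42 are large subunit proteins specific to mitochondria. Mrpl54 (chr10:81264722-81266926) had 9.12, 11.3, 13.6 and 10.6 CPM in wild type, 20.1, 17.3 and 18.9 CPM in control, and 16.6, 17.1 and 17.8 CPM in repopulated microglia. Both 5xFAD groups were above every wild-type library, and control against wild type gave a log2 fold change of 0.75 (SE 0.18, adjusted p = 0.0101). Mrpl42 (chr10:95480805-95501949) had 87.5, 149, 161 and 86.8 CPM in wild type, 186, 246 and 153 CPM in control, and 129, 106 and 129 CPM in repopulated microglia. Control 3 lay below wild-type 3, and the log2 fold change of 0.69 (SE 0.22) had an adjusted p of 0.0433. The call of Mrpl42 was the least secure of the 8, lost in 12 of 23 alternatives, among them leaving out wild-type 1 (adjusted p = 0.105), wild-type 4 (0.116), control 1 (0.0917), control 2 (0.212) and any of the 3 repopulated libraries (0.0537 to 0.0603). The call of Mrpl54 was lost without control 1 (0.0529) and without the 3 libraries low in Y-linked transcripts (log2 fold change 0.65, adjusted p = 0.208).

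Mrps18c and Mrps36 carried the rise among small subunit symbols. Mrps18c (chr5:100798759-100804467) had 44.1, 65.3, 67.1 and 44.4 CPM in wild type, 88.6, 108 and 72.6 CPM in control, and 56.6, 50.6 and 65.6 CPM in repopulated microglia. Control was above both other groups, with a log2 fold change against wild type of 0.70 (SE 0.18, adjusted p = 0.0173). The call was lost without wild-type 4 (0.0533), control 1 (0.0530) or control 2 (0.0927), and with the GC and length correction (0.348). Its paralogues were not called: Mrps18a had a log2 fold change of 0.20 (adjusted p = 0.396) and Mrps18b, a small subunit protein, 0.34 (adjusted p = 0.170). Mrps36 (chr13:100735940-100744659) had 16.3, 21.8, 12.3 and 17.8 CPM in wild type, 31.7, 34.7 and 29.7 CPM in control, and 26.0, 23.3 and 28.4 CPM in repopulated microglia. Both 5xFAD groups were above wild type, with a log2 fold change of control of 0.91 (SE 0.18, adjusted p = 0.00322), and the call was lost with the GC and length correction alone (0.358). Without Mrps36, whose protein is assigned elsewhere, 6 of 77 genes rose.

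**Figure D2:**
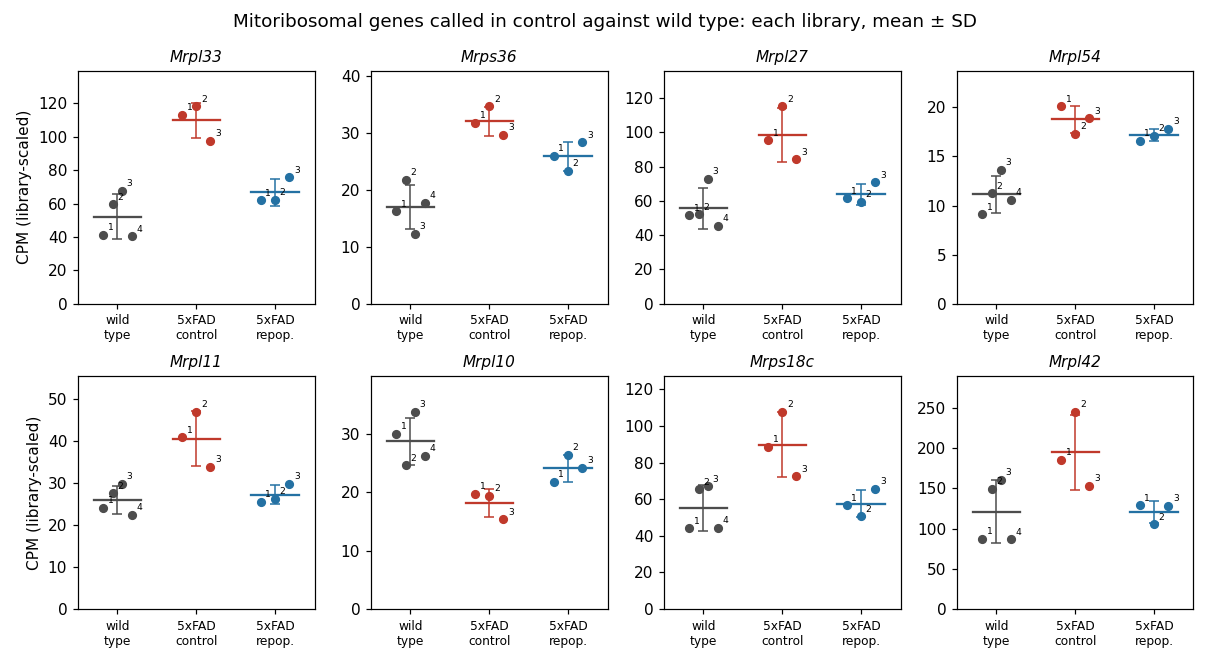
TMM-scaled CPM (y axis) of the 8 mitoribosomal genes called in control against wild type in each library (points, numbered by replicate), with the mean and SD of wild type (grey), 5xFAD control (red) and 5xFAD repopulated (blue). In Mrpl33, Mrpl27, Mrpl11 and Mrps18c the red points lie above both other groups, in Mrps36 and Mrpl54 red and blue both lie above grey, and in Mrpl10 red lies below.

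Just outside the threshold was Mrpl37, a large subunit protein specific to mitochondria, with a log2 fold change of -0.62 and an adjusted p of 0.0516. Its levels were 52.4, 59.2, 72.0 and 59.1 CPM in wild type, 40.2, 24.5 and 53.8 CPM in control, and 61.7, 58.1 and 59.4 CPM in repopulated microglia. The control libraries spread widely and control 3 lay above wild-type 1. Without control 3 the adjusted p was 0.00944. Next were Mrps33 (log2 fold change 0.54, adjusted p = 0.0590), Mrps21 (0.47, adjusted p = 0.0696), Mrpl30 (0.38, adjusted p = 0.0838), Mrpl23 (0.43, adjusted p = 0.0891) and Mrps30 (-0.46, adjusted p = 0.0932). Leaving out wild-type 3 raised the number of genes that rose from 7 to 11, adding Mrpl23, Mrpl30, Mrps21 and Mrps33, and leaving out control 1 or control 2 lowered it to 4. The share of all genes called moved with these counts, to 23.6% when wild-type 3 was left out, 10.2% for control 1 and 11.3% for control 2. The part of the marker signal of wild-type 3 in these counts was not tested.

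In repopulated against control microglia no mitoribosomal gene was called by edgeR, against 0.568% of all genes tested. At an unadjusted p under 0.05 there were 13 genes, and the smallest adjusted p was 0.0855. DESeq2 called 4 genes lower, Mrpl33, Mrpl27, Mrpl11 and Mrps18c. A fit of these 6 libraries alone called 4 lower, Mrpl33, Mrpl27, Mrpl42 and Mrps18c, and the fit without wild-type 3 called Mrpl33 and Mrpl27. Of all genes these fits called 6.15%, 5.26% and 2.66% in either direction. By direction they called 306, 291 and 122 of all genes lower and 313, 339 and 206 higher. The family's calls were all lower, and their share was not tested against that of all genes. The median log2 fold change of the family was -0.12 with TMM factors and 0.02 with library totals alone, where the median of all genes was -0.001 and 0.14. The difference from the median of all genes was -0.12 under both scalings, which shift all genes by about the same amount. It was -0.05 with a GC and length correction and -0.03 with a term for Y-linked transcripts. Leaving out single libraries gave -0.13 (without repopulated 3) to -0.07 (without repopulated 2). The groups did not overlap in 23 genes that were lower and 7 that were higher in repopulated microglia, against 15.7% and 15% of all genes by direction and 30.7% in either.

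The members with the most negative fold changes were Mrpl33, with a log2 fold change of -0.72 (SE 0.19, adjusted p = 0.0855), Mrpl42 with -0.69 (adjusted p = 0.154) and Mrps18c with -0.64 (adjusted p = 0.126). Mrpl27 followed with -0.62 (adjusted p = 0.110) and Mrpl11 with -0.58 (adjusted p = 0.116). These 5 genes were among those that rose in control. Close behind were Mrpl1 at -0.57 (adjusted p = 0.166) and Mrpl13 at -0.51 (adjusted p = 0.205). Mrps14 and Mrps33 were both at -0.50 (adjusted p = 0.228 and 0.201). None of these was called in control against wild type. Both comparisons use the same 3 control libraries, so a high control value enters them with opposite signs. Mrps36 at -0.31 (adjusted p = 0.427) and Mrpl54 at -0.13 (adjusted p = 0.766) had smaller differences, and that of Mrpl54 was 0.01 with library totals alone. The most positive values were those of Mrpl37 at 0.60 (adjusted p = 0.174), Mrpl38 at 0.50 (adjusted p = 0.281), Mrpl4 at 0.48 (adjusted p = 0.222), Mrpl10 at 0.41 (adjusted p = 0.236) and Mrpl49 at 0.28 (adjusted p = 0.493). Mrpl37 alone was called higher when wild-type 2, control 1 and control 3 were left out (log2 fold change 1.29, adjusted p = 0.0250), a fit that sets the repopulated libraries against control 2 alone and takes its spread from the other groups.

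In repopulated against wild-type microglia no mitoribosomal gene was called by edgeR, against 4.18% of all genes tested, 3.4% higher and 0.784% lower. At an unadjusted p under 0.05 there were 4 genes. DESeq2 called Mrpl54 and Mrps36 higher, where it called 6.26% of all genes, 573 of them higher and 207 lower. The smallest adjusted p was that of Mrpl54, at 0.0747, with a log2 fold change of 0.62 (SE 0.18), and Mrps36 had 0.61 (SE 0.18, adjusted p = 0.0895). In both genes the 3 repopulated libraries lay above the 4 wild-type libraries. The call of Mrpl54 was gained without wild-type 3 (adjusted p = 0.0176) and that of Mrps36 without wild-type 2 (adjusted p = 0.0399). Mrpl12, Mrpl33 and Mrps18b followed with log2 fold changes of 0.37, 0.35 and 0.33, and adjusted p of 0.358, 0.383 and 0.366. The lowest were Mrpl1 at -0.49 (adjusted p = 0.221), Mrpl50 at -0.40 (adjusted p = 0.353) and Mrpl39 at -0.39 (adjusted p = 0.273). The median of the family was 0.02, with 42 genes above 0 and 36 below, and -0.05 with library totals alone. The groups did not overlap in 4 genes that were higher and 2 that were lower, against 9.13% and 6.82% of all genes by direction and 16% in either.

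Large and small subunit genes had nearly the same median change in control against wild type. The median log2 fold change was 0.13 for the 49 large and 0.12 for the 29 small subunit genes. Of the large subunit 5 rose and 1 fell (12.2%), and of the small subunit 2 rose (6.90%), against 18.1% of all genes. Of the genes with a bacterial counterpart 4 rose and 1 fell of 46, and of those specific to mitochondria 3 rose of 32. In repopulated against control the medians were -0.16 for the large and -0.002 for the small subunit, a difference of -0.16, which was -0.06 with the GC and length correction and -0.13 with Mrps18a and Mrps30 counted with the large subunit. Of the large subunit 39 of 49 genes were lower in value in repopulated microglia, and of the small subunit 15 of 29.

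Per library, the ratio of summed large to summed small subunit TPM was 1.73 ± 0.053 (SD, n = 4) in wild type, 1.81 ± 0.0095 (SD, n = 3) in control and 1.71 ± 0.024 (SD, n = 3) in repopulated microglia. The control libraries, at 1.80 to 1.82, lay above all others, of which wild-type 3 was the highest at 1.79. On summed CPM, which weights long transcripts more, the ratio was 1.77 to 1.88 in wild type and 1.79 to 1.84 in control, so these groups overlapped, whereas the highest repopulated library, at 1.786, lay just below the lowest control library, at 1.787. The order of wild type and control therefore depended on the unit. A ratio over genes was described and not tested.

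**Figure D3:**
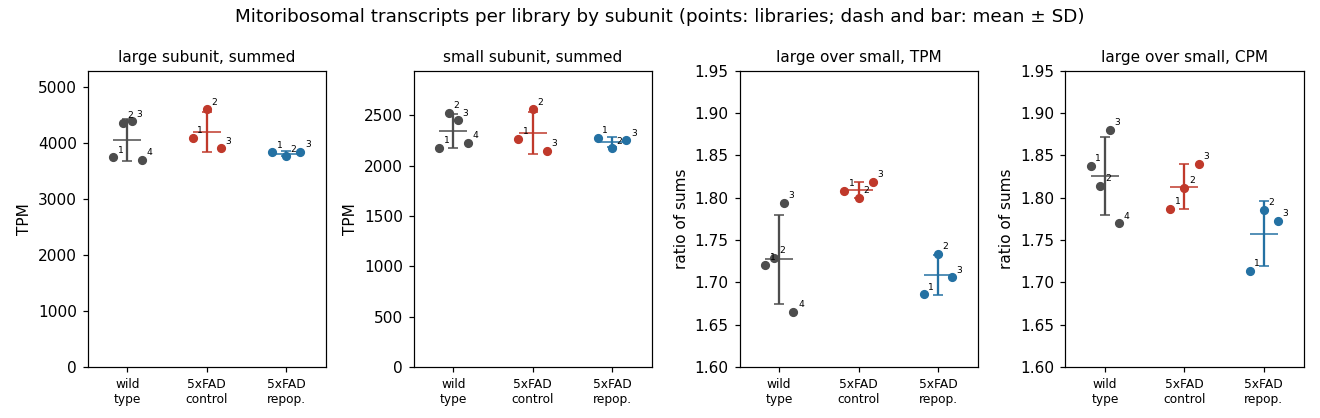
Summed TPM of the large and small subunit genes and the ratio of the sums in TPM and in CPM (y axes; the ratio axes start at 1.6) for each library, with the mean and SD of each group. The sums of wild type overlap those of both other groups, the large subunit sums of control lie above those of repopulated microglia, and the control ratio of 1.80 to 1.82 lies above the other groups in TPM but within the wild-type range in CPM.

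Fold changes of the mitoribosomal genes varied with the GC content of their transcripts, as did those of all genes. Across the 78 genes, which share libraries and are not independent, Spearman's rho between fold change and GC content was -0.20 in control against wild type, 0.46 in repopulated against control and 0.30 in repopulated against wild type. Across the 12226 tested genes with a GC value it was -0.26, 0.44 and 0.14. By longest transcript, the 7 genes that rose in control had a median length of 820 bases and a median GC content of 47.2%. The 70 that were not called had 1923 bases and 49.9%. The 7 spanned 604 to 3277 bases, and rho with length over the 78 genes was -0.04 in control against wild type. It was 0.17 for the large and -0.35 for the small subunit. In wild type Mrpl33, at 2741 bases, had 402 TPM and 52.2 CPM, and Mrps18c, at 820 bases, 368 TPM and 55.3 CPM. The lengths behind the TPM values therefore differ from these, which the correction also used. With the GC and length correction Mrpl33, Mrpl27, Mrpl54, Mrpl11 and Mrpl10 were still called, Mrpl42, Mrps18c and Mrps36 were not, and Mrpl37, Mrpl50, Mrps27 and Mrps30 were added, all lower in control.

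**Figure D4:**
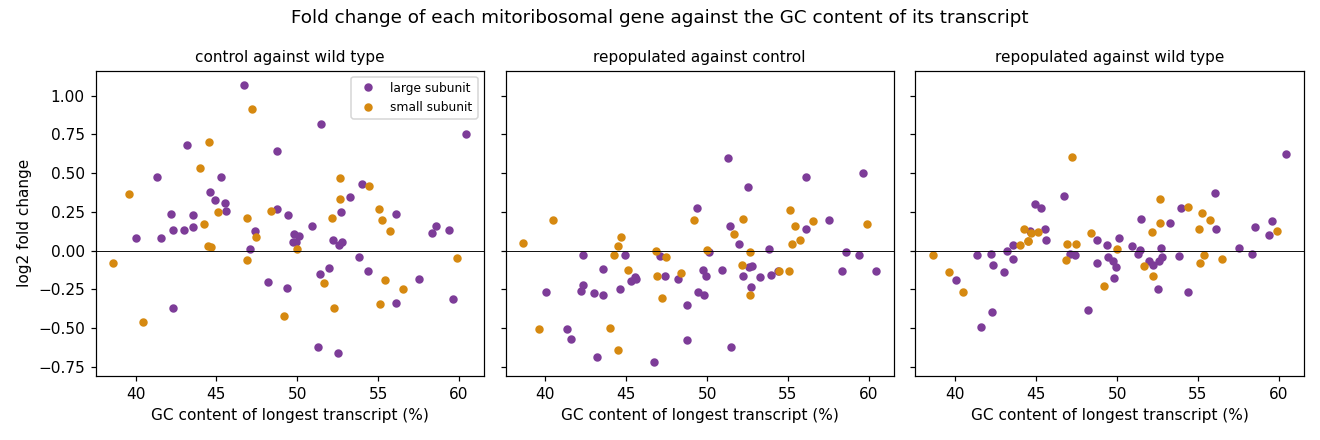
Log2 fold change (y axis) of each mitoribosomal gene against the GC content of its longest transcript (x axis, percent) in the 3 comparisons, purple for the large and orange for the small subunit. Points rise to the right in repopulated against control (Spearman's rho 0.46) and fall slightly in control against wild type (-0.20).

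Other genes of mitochondrial translation were changed in control microglia in small numbers and in both directions, in 5.56% to 11.5% of each list of 18 or more genes and in 1 of 5 in the other, against 18.1% of all genes (10.1% higher, 8.04% lower). Of 5 mitoribosomal proteins without an Mrp symbol 1 rose, Chchd1, a small subunit protein, from 33.5 ± 4.6 CPM in wild type (SD, n = 4) to 46.8 ± 6.1 CPM in control (SD, n = 3), with an adjusted p of 0.0339. That call was lost in 12 of 23 alternatives, among them leaving out any library but wild-type 2, control 3 or repopulated 3 (adjusted p 0.0501 to 0.144), and the fold change reversed to -0.14 with the GC and length correction. Of 18 translation factors Slirp rose and Mtif3 fell. Slirp, which with Lrpprc stabilises mitochondrial mRNAs, went from 39.2 ± 10.9 to 75.1 ± 13.4 CPM (log2 fold change 0.94, SE 0.20, adjusted p = 0.00415) and was called in each of 23 alternatives. Lrpprc itself had a log2 fold change of 0.45 (adjusted p = 0.0607). Mtif3, an initiation factor, had a log2 fold change of -0.55 (adjusted p = 0.0270), lost without wild-type 1 (0.0666), wild-type 4 (0.0672), control 1 (0.111) or control 2 (0.116).

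Of 26 assembly factors 1 rose and 2 fell. Mtg2, a GTPase of large subunit assembly, was lower in control, at 22.4 ± 6.6 CPM against 41.3 ± 9.6 CPM in wild type (log2 fold change -0.88, adjusted p = 0.0147), a call lost without control 2 (0.0710). Rbfa, which acts in small subunit maturation, was lower with a log2 fold change of -0.76 (adjusted p = 0.0224), lost without wild-type 1 (0.0629) or control 2 (0.107). C1qbp, a mitochondrial matrix protein needed for mitoribosome formation, was higher with a log2 fold change of 0.42 (adjusted p = 0.0378), and its call was lost in 15 of 23 alternatives, among them leaving out any library but wild-type 2 or 3 (0.0519 to 0.126). Of 22 genes of mitochondrial tRNA charging Gars, whose enzyme also serves the cytosol, rose with a log2 fold change of 0.60 (adjusted p = 0.00664), lost with library totals alone (0.0641) and, at a log2 fold change of 0.65, without the 3 libraries low in Y-linked transcripts (0.0940). Gatc, a subunit of the complex that makes glutaminyl-tRNA in mitochondria, fell by 0.81 on the log2 scale (adjusted p = 0.00641), from 45.9 ± 7.1 to 26.3 ± 6.1 CPM, and stood at 43.2 ± 4.9 CPM in repopulated microglia. Of 18 genes of mitochondrial DNA expression and its regulators Esrra, a nuclear receptor, fell by 0.96 (adjusted p = 0.0388), a call lost in 13 of 23 alternatives, among them leaving out any library but wild-type 2, wild-type 3 or repopulated 1 (0.0542 to 0.143). In repopulated microglia no gene of these lists was called against either other group.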

How the data were processed

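The table deposited by the authors lists 19782 mouse genes, each with a count, an FPKM and a TPM value in every library. The estimated counts, as deposited by the authors, are reads assigned per gene without normalisation, per the file headers and values: 20.1% of those above 0 differ from a whole number by more than 0.001. FPKM values as deposited were not used. TPM values as deposited, which are scaled to gene length and library, served for levels between genes. Libraries were made with a Smart-Seq protocol, per the labels' protocols. HISAT, Bowtie2 and the build GRCm38.p6 are named in the submitters' processing notes. No source used here gives the quantifier, the versions or the strand setting, and reads of near-identical genes may be split.

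Rounded counts entered edgeR 4.0.16 (R 4.3.3, with DESeq2 1.42.0, limma 3.58.1 and statmod 1.5.0): filterByExpr, TMM, 1 robust quasi-likelihood model of 3 groups over 10 libraries, Benjamini-Hochberg adjustment over 12505 genes at 0.05, and a prior count of 0.125. The SE of a log2 fold change is its size divided by the root of F. The biological coefficient of variation was 27.3%. The test was tested on simulated data. Coordinates and promoters are RefSeq's, on GRCm38.p6. GC content and length are those of the longest GENCODE transcript (97.8% of tested genes). All pairs of libraries within a group differed by more than sampling noise. A call means an adjusted p under 0.05.

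The genes, lists and tests were chosen with earlier results of these data known. Named are all called members, the 5 highest and 3 lowest levels and fold changes, the Mrps18 genes, and list members by lowest p. Mrps33, Mrps21, Mrpl30, Mrpl23, Mrps30, Mrpl12, Mrpl13, Mrps14 and members added or lost by an alternative were named after values were seen. Alternatives were other library factors, DESeq2, limma-voom, other filters and thresholds, a prior count of 0.5, a replicate block, the compared groups alone, a GC and length correction, a term for Y-linked transcripts, leaving out the 3 libraries low in them, leaving out each library and, chosen after seeing the data, library totals without factors.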

Additional observations from a re-analysis of the deposited data

Results flagged for a closer look

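In 2 of the 78 mitoribosomal genes 1 wild-type library lay far from the other 3, judged by its gap to the nearest library as a share of the group's range. For Mrpl3 the share was 0.849: wild-type 3 had 14.8 CPM and the others 23.9 to 25.5 CPM. For Mrpl38 it was 0.889: wild-type 3 had 12.97 CPM and the others 18.7 to 19.4 CPM. Chance flags about 1 in 20 groups. The same library had the highest neuronal, astrocytic, oligodendrocytic and red blood cell marker sums, and their part in these values was not tested.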

How the results depend on the processing

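In control against wild type, 4 genes rose with the replicate block and 4 with the GC and length correction, 3 at an adjusted p under 0.01 and 12 under 0.1. Leaving out 1 library gave 4 to 11 that rose and 1 to 2 that fell. The number that fell was 2 with upper-quartile factors, DESeq2, limma-voom, without a filter and when requiring 5 CPM in 3 libraries, 5 with the GC and length correction, 8 with library totals alone, 0 under 0.01 and 3 under 0.1. The family median was -0.044 with the GC and length correction and -0.081 with library totals alone. Large minus small subunit median, 0.0051 in the main fit, was -0.074 when corrected for GC and length, and -0.060 to 0.041 without single libraries. The ratio of summed levels, 1.02 in TPM, was 1.16 in CPM.

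In repopulated against control, 4 genes were lower with DESeq2 and 4 with only these groups, 1 under 0.1, and 0 to 2 without single libraries. Mrpl37 was the 1 gene higher without the 3 libraries low in Y-linked transcripts. The family median was 0.017 with library totals alone. Large minus small, -0.157 in the main fit, was -0.060 with the GC and length correction, -0.098 with the Y-linked term, -0.128 without the 3 libraries, -0.126 with Mrps18a and Mrps30 moved, and -0.163 to -0.119 without single libraries. In repopulated against wild type, 2 genes were higher with DESeq2, 2 under 0.1, and 0 to 1 without single libraries. Large minus small, -0.081 in the main fit, was -0.042 with the Y-linked term, -0.038 without the 3 libraries and -0.094 to -0.029 without single libraries.

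Signs reversed for Mrps36 in repopulated against control (0.037 with the GC and length correction), Mrpl54 in the same comparison (0.011 with library totals alone), Mrps18a in control against wild type (-0.0084 with library totals alone) and Chchd1 there (-0.14 with the GC and length correction). Where no value is named, the cause was not tested. Same-numbered libraries did not deviate together more than others (correlations -0.105 to 0.071, against -0.109 to 0.129 for differently numbered ones). With so few libraries per group these correlations cannot exclude that the numbers pair the samples. With the replicate block Mrpl11, Mrpl42 and Mrps18c lost their call in control against wild type (adjusted p 0.0619, 0.119 and 0.0612), and no other member's call changed in any comparison. With 3 or 4 libraries per group and low counts in genes such as Mrps6 and Mrpl47, a difference that was not called may still exist.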
